A study of Mus musculus with 6 samples.

Results

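The motile cilia genes described here are the 63 genes whose symbols begin with Cfap, Dnah or Dnai followed by a digit, out of 33696 genes in the deposited count tables. They comprise 43 Cfap genes (cilia and flagella associated proteins), 16 Dnah genes (heavy chains of axonemal dynein, with 1 antisense transcript) and 4 Dnai genes (intermediate chains of axonemal dynein). They were followed through 6 single-cell RNA libraries of freshly dissociated mouse brain cells, made with a droplet 3′ kit. There were 2 libraries each of TRPM2 Mg KO with bilirubin, wild type (WT) with bilirubin and WT with vehicle, and no knockout library with vehicle is among them. The labels give no dose, duration, brain region, age or sex, and do not say what Mg stands for or which cells the knockout reaches. Nor do they say that the libraries came from separate animals, so p-values measure only the spread between these libraries.

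A motile cilium is built on an axoneme, a ring of microtubule doublets around a central pair. Rows of outer and inner dynein arms walk along the neighbouring doublet and bend the axoneme, radial spokes and the central apparatus pattern the beat, and proteins inside the doublet walls stabilise them. In the brain, multiciliated ependymal cells line the ventricles and move cerebrospinal fluid, and choroid plexus epithelium, which secretes that fluid, carries cilia of its own. RFX factors and Foxj1 are the regulators best known for switching on motile cilia genes.

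RFX factors bind the X-box, an imperfect inverted repeat with an arm that reads GTTGCC, so the promoters of these genes were searched for it. RefSeq promoters (GRCm38.p6) were matched for 51 of the 63 genes, and the 250 bases before the start were read on both strands. GTTGCC was found for 17 of the 51 genes (33.3%), against 11.8% of the 27025 genes in the table. The 17 include Dnah7a, Dnah7b and Dnah7c, near-identical copies that are not independent matches. GTAAACA, a forkhead motif that does not overlap it, was found for 3 of 51 (5.88%), against 3.54% of all genes. The 4 promoters shown are those of Dnah10 (chr5:124724835-124725084, plus strand), Cfap44 (chr16:44394549-44394798, plus strand), Cfap20 (chr8:95434870-95435119, minus strand) and Cfap298 (chr16:90934850-90935099, minus strand). They were chosen because these genes span the range of the class difference described further on, with Dnah10 strongly ependymal and Cfap298 shared with choroid plexus cells. GTTGCC or its reverse complement is in capitals.
Dnah10: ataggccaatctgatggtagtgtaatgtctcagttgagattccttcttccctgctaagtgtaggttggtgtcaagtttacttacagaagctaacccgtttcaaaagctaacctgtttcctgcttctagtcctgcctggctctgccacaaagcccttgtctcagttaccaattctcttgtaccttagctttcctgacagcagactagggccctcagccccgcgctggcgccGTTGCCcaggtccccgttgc
Cfap44: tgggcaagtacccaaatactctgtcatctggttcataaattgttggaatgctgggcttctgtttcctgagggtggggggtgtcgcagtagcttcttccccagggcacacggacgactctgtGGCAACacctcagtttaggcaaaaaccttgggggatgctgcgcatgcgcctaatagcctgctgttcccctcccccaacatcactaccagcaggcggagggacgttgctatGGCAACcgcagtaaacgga
Cfap20: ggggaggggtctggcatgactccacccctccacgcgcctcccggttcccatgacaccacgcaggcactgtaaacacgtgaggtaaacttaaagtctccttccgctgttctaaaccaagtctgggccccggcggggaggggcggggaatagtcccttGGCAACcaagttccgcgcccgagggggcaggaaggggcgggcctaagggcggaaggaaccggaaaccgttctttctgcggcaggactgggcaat
Cfap298: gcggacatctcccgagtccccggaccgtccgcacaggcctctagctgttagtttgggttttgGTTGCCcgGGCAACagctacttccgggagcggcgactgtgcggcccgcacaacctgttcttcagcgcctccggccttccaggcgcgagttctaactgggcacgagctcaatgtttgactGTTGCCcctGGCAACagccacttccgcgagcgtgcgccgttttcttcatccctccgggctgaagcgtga
The copy in Dnah10 began 20 bases before the start and that in Cfap20 94 bases before it. Cfap44 held 2 copies and Cfap298 held 4, the nearest beginning 19 and 60 bases before the start. These are matches of letters, present on both sides of the class difference, with no data on binding.

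Depth per library was 24165563 to 63402551 UMIs over 4137 to 24309 barcodes (1149 to 2071 UMIs at the median barcode), and 84783 of 95014 barcodes were kept. Trpm2, the gene named in the knockout label, had 17.8 and 19.1 CPM in TRPM2 Mg KO bilirubin, 19.9 and 35.03 in WT bilirubin and 25.3 and 16.2 in WT vehicle in the microglia class (CPM, counts of UMIs per 1000000 UMIs of the class in that library), so the groups overlapped. A 3′ tag outside the deleted part would not show the deletion. WT vehicle library 1 stood apart in RNA that also appears outside its own cells: its ependymal class held 11995 CPM of the neuronal RNA Bc1, against 657 to 2649 CPM in the other 5 libraries. Of 94031 barcode sequences, 980 occurred in more than 1 library, and 0 of these were ependymal cells.

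Cells were assigned to classes by marker genes, none of which is one of the 63. Some ependymal markers, such as Foxj1, are nonetheless tied to motile cilia, so the class was selected in part for motile cilia transcripts. A gate without such markers was run as an alternative. A cell was called ependymal when at least 3 of 10 markers (Tmem212, Ccdc153, Foxj1, Rarres2 and others) were detected and their UMIs stood above the library's average share by a score of at least 5. This gave 84 and 122 ependymal cells in TRPM2 Mg KO bilirubin, 404 and 200 in WT bilirubin and 249 and 145 in WT vehicle, or 1204 cells in all (1.42% of those kept). The class is a range on that score: 306 of its cells had a score under 10, and 690 further cells had their best score for ependymal markers but lay below the threshold. The choroid plexus class held 1684 and 664 cells in TRPM2 Mg KO bilirubin, 2847 and 1838 in WT bilirubin and 1117 and 3734 in WT vehicle. At the median cell, ependymal markers made up 68.8 to 121 of 10000 UMIs in the ependymal class and 4.96 to 12.8 in the choroid plexus class. Choroid plexus markers made up 12.6 to 395 of 10000 UMIs in the ependymal class, with the highest value in TRPM2 Mg KO bilirubin library 2, and 776 to 2603 in the choroid plexus class. No class was given to 52441 cells.

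Motile cilia transcripts were concentrated in ependymal cells. The 63 genes together took 11369.9 and 5701 CPM in the ependymal class of TRPM2 Mg KO bilirubin, 10121 and 12512 in that of WT bilirubin and 6595 and 6604 in that of WT vehicle. The choroid plexus class held 1481 and 1289 CPM of the same genes in TRPM2 Mg KO bilirubin, 1517 and 1497 in WT bilirubin and 1178 and 1377 in WT vehicle. All other named classes held, when summed, 646 and 969 CPM in TRPM2 Mg KO bilirubin, 965 and 643 in WT bilirubin and 609 and 669 in WT vehicle. In each of the 6 libraries the ependymal sum therefore lay above the choroid plexus sum, which lay above that of the other classes. Ependymal cells held 21.7% of the UMIs of these genes in named classes, but 3.53% of all UMIs there. Over all barcodes they held 12.1% of the UMIs of these genes (39814 of 328368), so most lay outside the class.

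When every cell was thinned to 1000 UMIs, 98.2% ± 1.43 of ependymal cells (SD, n = 6 libraries) held at least 1 UMI of these genes, with 7.40 ± 2.19 of the 63 genes seen per cell. Thinned choroid plexus cells came to 71.5% ± 3.61 with 1.27 ± 0.122 genes per cell, and microglia, which have no motile cilia, to 48.1% ± 5.94 with 0.684 ± 0.14 genes per cell. The unthinned shares were 99.4% in ependymal cells, 94.6% in choroid plexus cells and 78.2% in microglia. Median depths per library were 1721 to 5791.5 UMIs in ependymal cells, 2056 to 7332.5 in choroid plexus cells and 1874 to 3702 in microglia, and 88, 110 and 239 cells of the 3 classes were too shallow to thin. Thinned astrocytes came to 54.8% ± 9.80, endothelial cells to 50.5% ± 4.96 and oligodendrocytes to 45.7% ± 6.42. The choroid plexus share has to be read against these 4 classes; how much of their share is free RNA was not tested.

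**Figure D1:**
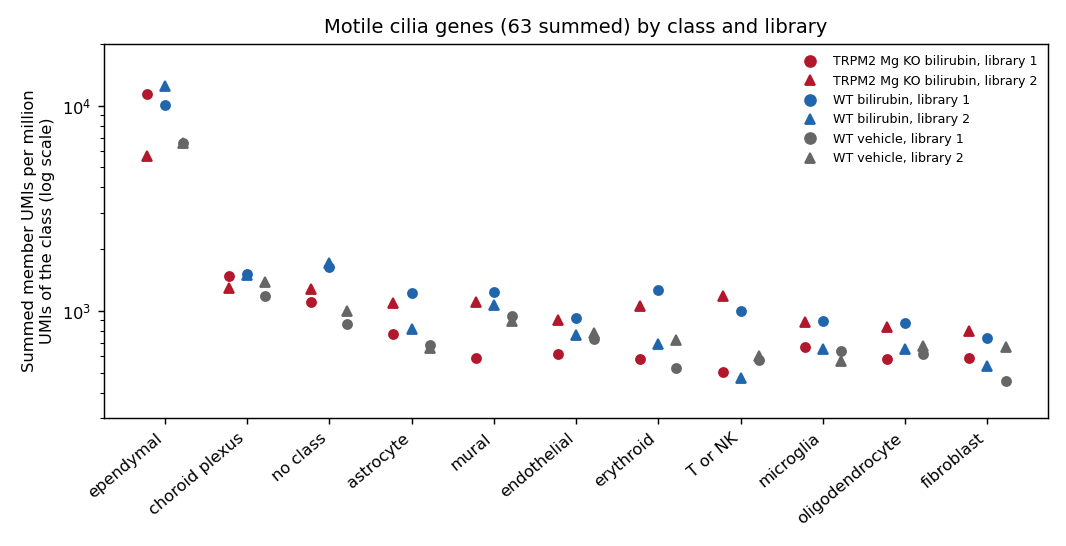
Summed UMIs of the 63 motile cilia genes in CPM of each class (y axis, log scale) by class (x axis); each point is 1 library, coloured by group. Ependymal cells lie between 5701 and 12512 in all 6 libraries, choroid plexus cells between 1178 and 1517.

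Within ependymal cells, 38 of the 63 genes averaged at least 100 CPM, 19 lay between 10 and 100 CPM and 6 lay under 10 CPM. These are UMI counts at 3′ ends, not scaled by gene length. Cfap141, a protein inside the doublet wall, had the most UMIs. It had 747 and 806 CPM in TRPM2 Mg KO bilirubin, 801 and 1062 in WT bilirubin and 696 and 673 in WT vehicle, so the libraries of TRPM2 Mg KO bilirubin lay close together. Cfap299, to which no role was assigned, had 671 and 329 CPM in TRPM2 Mg KO bilirubin, 624 and 785 in WT bilirubin and 317 and 339.8 in WT vehicle. Cfap54, of the central apparatus, had 524 and 159 CPM in TRPM2 Mg KO bilirubin, 453 and 577 in WT bilirubin and 301 and 219.7 in WT vehicle. The heavy chain Dnah12, of the 1-headed inner arms, had 559.9 and 134 CPM in TRPM2 Mg KO bilirubin, 457 and 517 in WT bilirubin and 259.6 and 189 in WT vehicle. For Cfap54 and Dnah12 both WT bilirubin libraries lay above both WT vehicle libraries, as for Cfap299, and the 2 TRPM2 Mg KO bilirubin libraries lay far apart, library 1 beside or above WT bilirubin and library 2 below WT vehicle. The next by level were the heavy chain Dnah6 (340.3 ± 157 CPM, mean ± SD over the 6 libraries), the assembly factor Cfap298 (332 ± 74.7 CPM), the outer arm heavy chain Dnah11 (246 ± 116 CPM), Cfap44 of the inner arm tether (242 ± 102 CPM), the doublet protein Cfap20 (242 ± 67.6 CPM), the outer arm heavy chain Dnah9 (237 ± 98.6 CPM), Cfap68 (234 ± 45.2 CPM) and Cfap65 of the central apparatus (203 ± 73.1 CPM).

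**Figure D2:**
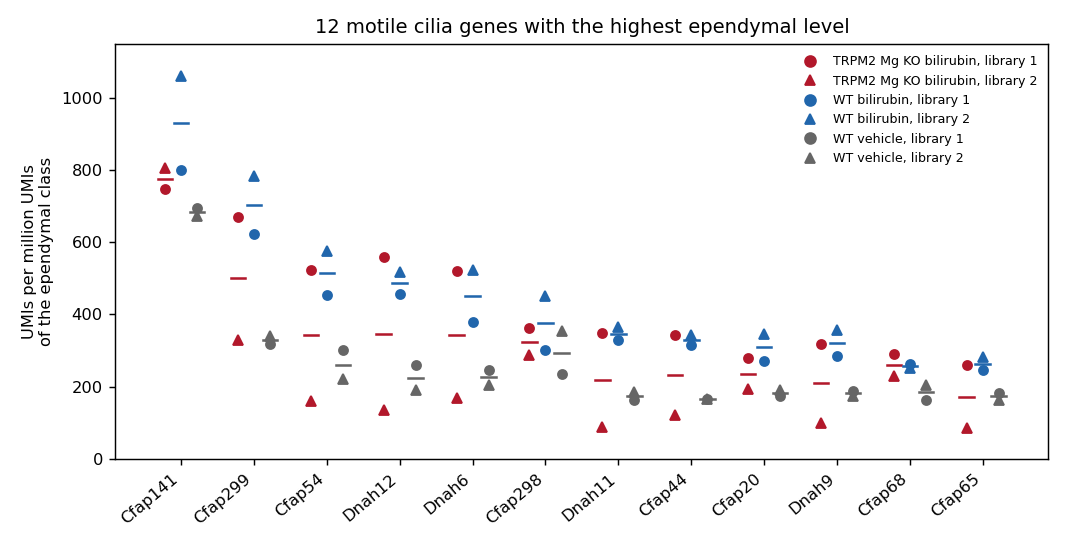
Level in ependymal cells, in CPM (y axis, linear), of the 12 motile cilia genes with the highest mean (x axis); each point is 1 library and each bar the mean of the 2 libraries of a group. Dnah12 shows the split between the TRPM2 Mg KO bilirubin libraries at 559.9 and 134 CPM, and Cfap141 its absence at 747 and 806 CPM.

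At the other end, the outer arm heavy chain Dnah17, known from sperm flagella, had 0 UMIs in all 6 ependymal sums, where a count of 0 allows up to 3 UMIs over the 6 libraries. Dnah8, likewise a heavy chain known from sperm, had 3 UMIs and Cfap97d1 had 2. Dnah2os, an antisense transcript of the Dnah2 locus, had 8 UMIs; whether its reads were told apart from those of Dnah2 is not stated. The remaining low genes were Cfap107 with 20 UMIs and Cfap20dc with 30. Dnah7a, Dnah7b and Dnah7c are near-identical copies and the counting may have split their reads, so their levels (109 ± 36.6, 95.7 ± 49.9 and 65.5 ± 38.6 CPM, SD, n = 6) are uncertain one by one. Across the 63 genes, the ependymal profiles of 2 libraries correlated with r of 0.900 to 0.989 over 15 pairs of libraries on the log2(CPM + 1) scale. Ependymal and choroid plexus profiles of the same library correlated with r of 0.572 to 0.794. Both describe genes within these libraries, and genes are not independent replicates.

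Ependymal cells were then compared with choroid plexus cells of the same library, with marker genes left out and library as a block (edgeR's quasi-likelihood test, TMM scaling). Of the 57 motile cilia genes that passed the filter on low counts, 51 were higher in ependymal cells at an adjusted p under 0.05, where 28.4% of all 11431 genes tested were called higher. A further 2 were lower, where 28.3% of all genes were called lower (56.7% in either direction). The median log2 fold change was 2.76 over the 57 genes and -0.01 over all genes. Transthyretin (Ttr) alone took 89379 to 254238 CPM of choroid plexus cells, but as a marker gene it was left out before scaling. The values nonetheless depended on the scaling. With totals of the genes tested instead, the median of all genes moved to 0.44 and that of the 57 genes to 3.22. The counts moved to 52 higher and 0 lower. On that scale 5237 of all 11431 genes were called higher. These were 75.2% of all calls, against 50.0% with TMM. In simulated data with the spread of this comparison, the test found 60% of genes changed 2-fold and 81.5% of those changed 4-fold. Only 200 genes were changed there, all upwards, whereas 6486 of 11431 were called here. These shares therefore do not give the sensitivity of this comparison.

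All 13 dynein heavy chains tested were higher in ependymal than in choroid plexus cells. The median log2 fold change was 3.74 for the 3 outer arm chains, 4.63 for the 2 chains of the 2-headed inner arm and 3.98 for the 8 chains of the 1-headed inner arms. It was 3.60 for the 4 tested genes of the inner arm tether and modifier and 3.33 for the 9 central apparatus genes, whose ranges overlapped those of the heavy chains, and no test compared the roles. Dnah12, given above for ependymal cells, had 1.61 and 6.60 CPM in TRPM2 Mg KO bilirubin, 7.14 and 2.33 in WT bilirubin and 4.95 and 1.48 in WT vehicle in choroid plexus cells, which is 1.14% of its ependymal level on average (log2 fold change 5.81, SE 0.36, adjusted p = 6.16e-10, edgeR, ependymal higher in 6 of 6 libraries). Dnah5, the outer arm heavy chain most often mutated in human primary ciliary dyskinesia, had 256 and 78.5 CPM in TRPM2 Mg KO bilirubin, 209 and 256 in WT bilirubin and 113 and 132 in WT vehicle in ependymal cells. In choroid plexus cells it had 1.07 and 4.44 CPM in TRPM2 Mg KO bilirubin, 2.95 and 1.16 in WT bilirubin and 3.05 and 0.662 in WT vehicle, so the classes did not come near each other (log2 fold change 5.72, SE 0.35, adjusted p = 4.92e-10, edgeR). The 1-headed arm chain Dnah3 (5.60), the 2-headed arm chain Dnah10 (5.34), Dnah7c (4.83) and Cfap100, an inner arm modifier (4.59), had the next highest log2 fold changes.

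**Figure D3:**
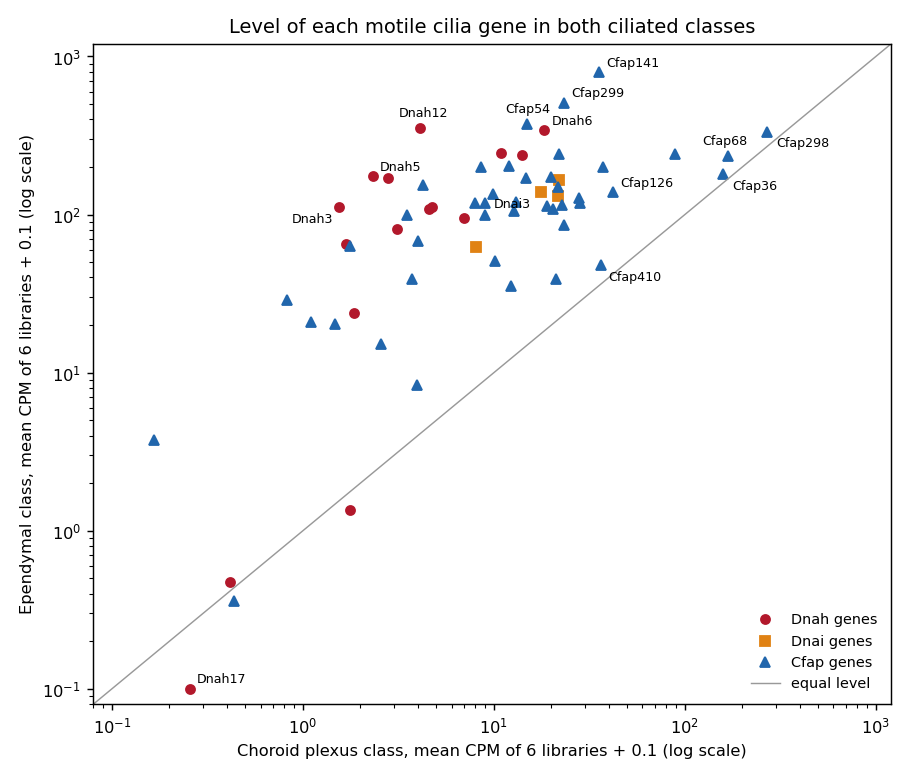
Mean CPM plus 0.1 of each of the 63 genes in ependymal cells (y axis) against choroid plexus cells (x axis), both on log scales, 6 libraries each; the line marks equal levels in CPM of all UMIs. Heavy chains such as Dnah12 (353 against 4.02 CPM) lie far above the line, while Cfap298 (332 against 269.9 CPM) and Cfap36 (181 against 158 CPM) lie near it, on the upper side here, although the fit with TMM scaling called both lower in ependymal cells and totals alone called neither.

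The 4 intermediate chains lay below every heavy chain on this scale. Dnai1 and Dnai2 of the outer arm and Dnai3 and Dnai4 of the inner arm were all higher in ependymal cells, by a median log2 fold change of 2.23 (1.89 to 2.28). The 9 central apparatus genes ranged from 1.69 to 4.52, the 3 genes of the radial spoke and its base (Cfap61, Cfap91 and Cfap206) from 2.09 to 2.78, and the 4 tested genes of the inner arm tether and modifier from 2.70 to 4.59. The 10 tested proteins inside the doublet walls ranged from 1.02 (Cfap126) to 4.17 (Cfap141). Cfap20, also a doublet protein, was counted with the broadly expressed genes instead. It had a log2 fold change of 0.75 (adjusted p = 0.000281, edgeR). All members of these groups that were tested passed the threshold as higher in ependymal cells.

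A handful of genes was shared about equally. Cfap36, which binds the small GTPase Arl3 and is expressed well beyond motile cilia, had 203 and 159 CPM in TRPM2 Mg KO bilirubin, 159.6 and 261 in WT bilirubin and 134 and 167 in WT vehicle in ependymal cells. In choroid plexus cells it had 159.6 and 132 CPM in TRPM2 Mg KO bilirubin, 149 and 192 in WT bilirubin and 149.6 and 165 in WT vehicle. Cfap298, a dynein assembly factor, had 362 and 288 CPM in TRPM2 Mg KO bilirubin, 300.1 and 451 in WT bilirubin and 235 and 354 in WT vehicle in ependymal cells. In choroid plexus cells it had 289 and 215 CPM in TRPM2 Mg KO bilirubin, 310.3 and 292 in WT bilirubin and 205 and 308 in WT vehicle, so for both genes the classes overlapped in CPM of all UMIs. On the TMM scale the fit called Cfap36 lower in ependymal cells (log2 fold change -0.50, SE 0.14, adjusted p = 0.00708, edgeR), and Cfap298 too (log2 fold change -0.38, SE 0.15, adjusted p = 0.0396, edgeR); with totals alone the values were -0.05 for Cfap36 and 0.06 for Cfap298, neither of them called. Cfap36 kept its call in 13 of 14 alternatives and Cfap298 in 7 of 14. Cfap410 (-0.29), Cfap68 (-0.20), Cfap97 (0.20) and Cfap20dc (0.18) did not pass (adjusted p = 0.175, 0.253, 0.368 and 0.734, edgeR). With totals alone Cfap410 had 0.15 and Cfap68 0.25, so no direction is given for them. Among the 56 genes with at least 20 CPM in ependymal cells, the choroid plexus level ran from 1.14% of the ependymal level (Dnah12) to 87.4% (Cfap36), with a median of 8.05%. These shares are in CPM of all UMIs. Ttr took 89379 to 254238 CPM of these in choroid plexus cells and 1638 to 39101 CPM in ependymal cells, which lowers the choroid plexus levels.

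**Figure D4:**
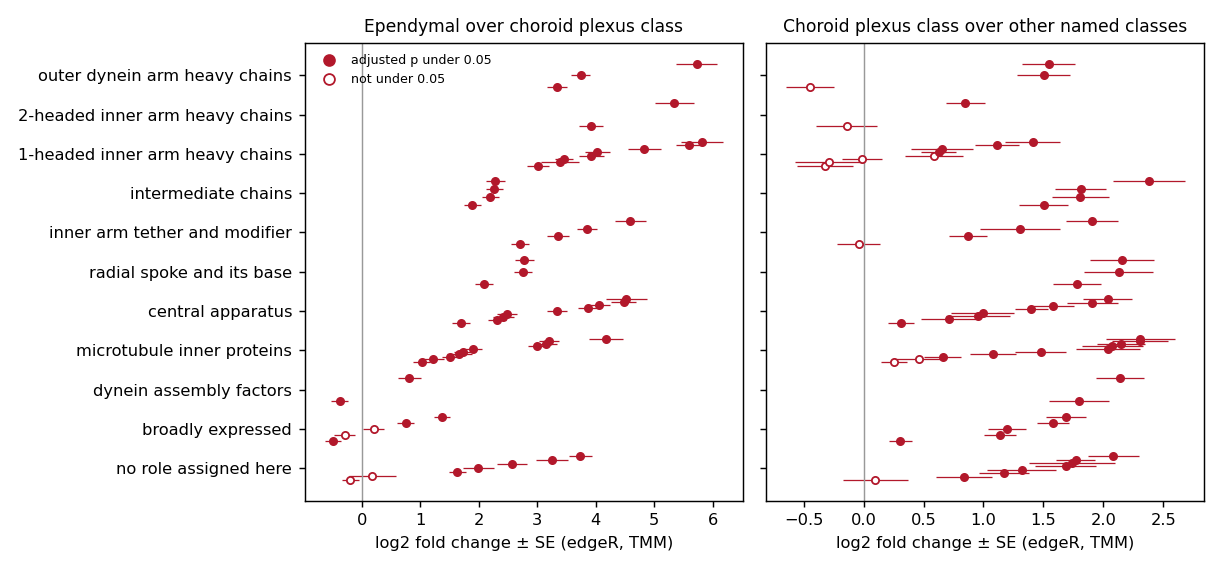
Log2 fold change (edgeR with TMM) of each motile cilia gene tested, grouped by role, for ependymal over choroid plexus cells and for choroid plexus cells over the other named classes. Heavy chains lie between 3.01 and 5.81 for ependymal over choroid plexus cells, overlapping the central apparatus genes (1.69 to 4.52), and Dnah12, Dnah5, Dnah3 and Dnah10 lie near or below 0 for choroid plexus cells over the others; the genes below 0 in the first comparison stand between -0.05 and 0.25 with totals alone.

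Choroid plexus cells in turn differed from the remaining named classes, ependymal cells left out. Of 57 motile cilia genes tested, 47 were higher in choroid plexus cells, where 31.6% of 15222 genes were called higher and 36.8% lower (68.4% in either direction). No gene of the 57 was called lower (0 with edgeR, 50 with an unadjusted p under 0.05 in either direction, and 48 called in either direction by DESeq2). With totals alone these counts became 37 higher and 5 lower. Of all 15222 genes, 11763 were called on that scale, 2782 of them higher. This made 23.7% of all calls higher, against 46.2% with TMM. The median of all genes was -0.57, against -0.10 with TMM. The intermediate chain Dnai3 had 18.9 and 13.6 CPM in TRPM2 Mg KO bilirubin, 17.2 and 23.6 in WT bilirubin and 14.5 and 17.2 in WT vehicle in choroid plexus cells. In the other classes it had 3.67 and 10.1 CPM in TRPM2 Mg KO bilirubin, 5.68 and 3.74 in WT bilirubin and 3.05 and 5.89 in WT vehicle, so the 2 sets of libraries did not overlap (log2 fold change 2.38, SE 0.30, adjusted p = 0.000168, edgeR). Cfap52 (2.31) and Cfap276 (2.31) of the doublet wall and Cfap61 of the radial spoke (2.16) followed.

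The 10 genes that did not pass were Dnah12, Dnah5, Dnah3, Dnah10, Dnah14, Dnah7c, Cfap100, Cfap141, Cfap45 and Dnah2os. They include the 6 genes with the highest ependymal excess over choroid plexus. In the other classes Dnah12 had 3.99 and 7.13 CPM in TRPM2 Mg KO bilirubin, 11.7 and 3.37 in WT bilirubin and 5.71 and 2.73 in WT vehicle, overlapping its choroid plexus values (log2 fold change -0.01, SE 0.17, adjusted p = 0.956, edgeR). Dnah5 stood at -0.45 and Dnah3 at -0.32 on the log2 scale; with totals alone Dnah5, Dnah3, Dnah10, Cfap100 and Dnah12 were called lower in choroid plexus cells (-0.92, -0.81, -0.63, -0.51 and -0.48).

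Cfap141, the gene with the most ependymal UMIs, had 15.4 and 85.9 CPM in TRPM2 Mg KO bilirubin, 37.8 and 16.6 in WT bilirubin and 45.7 and 10.9 in WT vehicle in choroid plexus cells. In microglia it had 15.9 and 70.4 CPM in TRPM2 Mg KO bilirubin, 68.2 and 26.8 in WT bilirubin and 35.1 and 14.6 in WT vehicle. The ependymal marker Tmem212 had 11.6 and 163 CPM in TRPM2 Mg KO bilirubin, 58.9 and 24.7 in WT bilirubin and 70.4 and 13.1 in WT vehicle in choroid plexus cells and 29.9 and 117 CPM in TRPM2 Mg KO bilirubin, 94.5 and 30.7 in WT bilirubin and 80.8 and 18.8 in WT vehicle in microglia. The libraries high in one gene were high in the other in both classes, with TRPM2 Mg KO bilirubin library 2 at the top and TRPM2 Mg KO bilirubin library 1 and WT vehicle library 2 at the bottom. How much of the Cfap141 level in cells other than ependymal cells is free RNA was not tested, so these levels are not interpreted. The genes with the most UMIs in the other classes were Cfap298, Cfap68 and Cfap36, which averaged 96.1 ± 28.3, 76.3 ± 16.9 and 74.7 ± 8.25 CPM there (SD, n = 6). In choroid plexus cells they averaged 269.9 ± 47.2, 168 ± 22.2 and 158 ± 20.3 CPM. Their log2 fold changes for choroid plexus cells over the others were 2.14, 1.77 and 1.69, all called.

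Against all other named classes summed, choroid plexus included, 55 of 58 genes tested were higher in ependymal cells, where 24.5% of 14024 genes were called higher (25.1% lower, 49.6% in either direction), with a median log2 fold change of 3.51 against -0.05 over all genes. No gene was called lower (0 with edgeR, 57 of the 58 with an unadjusted p under 0.05 in either direction, and 54 called by DESeq2). The 3 others were Cfap97 (0.41), Cfap36 (0.26) and Cfap20dc (0.84), with adjusted p of 0.0582, 0.0687 and 0.0992 (edgeR).

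The rest of the motile cilia machinery was taken from 8 lists: assembly factors, outer arm docking, the nexin-dynein regulatory complex, radial spoke, central apparatus, dynein light chains, doublet wall proteins with tektins, and regulators. Of 58 such genes tested between ependymal and choroid plexus cells, 50 were higher and 2 lower. Of all 11431 genes, 3246 were called higher and 3240 lower. The median log2 fold change was 2.14, against -0.01 over all genes. With totals alone 55 were higher and 0 lower, where 5237 of all 11431 genes were called higher. The 2 lower ones, named after their values were seen, were Gmnc, a regulator of multiciliated cell fate, and Drc7, of the regulatory complex. Gmnc had 17.7 and 3.89 CPM in TRPM2 Mg KO bilirubin, 13.2 and 19.5 in WT bilirubin and 6.18 and 6.10 in WT vehicle in ependymal cells and 10.7 and 7.41 CPM in TRPM2 Mg KO bilirubin, 12.1 and 15.5 in WT bilirubin and 7.23 and 8.45 in WT vehicle in choroid plexus cells, which overlapped (log2 fold change -0.71, SE 0.23, adjusted p = 0.0123, edgeR). Drc7 overlapped as well (log2 fold change -0.58, SE 0.19, adjusted p = 0.0147, edgeR), and with totals alone neither was called (adjusted p = 0.422 for Gmnc and 0.537 for Drc7, edgeR). Hydin, of the central apparatus, had the smallest p, with 233 and 129.8 CPM in TRPM2 Mg KO bilirubin, 293 and 381 in WT bilirubin and 212 and 157 in WT vehicle in ependymal cells and 3.61 to 7.61 CPM in choroid plexus cells (log2 fold change 4.75). Rfx3, which activates motile cilia genes, had 223 and 73.8 CPM in TRPM2 Mg KO bilirubin, 223 and 261 in WT bilirubin and 161 and 126 in WT vehicle in ependymal cells and 20.2 to 36.9 CPM in choroid plexus cells.

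Between the groups, no motile cilia gene passed an adjusted p of 0.05 in ependymal or choroid plexus cells, in any of the 6 comparisons (edgeR and DESeq2, all libraries fitted). In ependymal cells 57 of the 63 genes passed the filter on low counts. The other 6 were Dnah17, Cfap97d1, Dnah8, Dnah2os, Cfap107 and Cfap20dc. In simulated data with the ependymal spread of WT bilirubin against WT vehicle, the test found 2.5% of genes changed 2-fold and 83.0% of those changed 4-fold.

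For WT bilirubin against WT vehicle in ependymal cells, 0 of 57 genes were called, as were 0% of all 8790 genes tested (edgeR; 8 of the 57 and 777 of all genes had an unadjusted p under 0.05, and DESeq2 called 0 of the 57 and 2 of all). The log2 fold changes of all 57 genes tested lay above 0, where 48.6% of all genes did, with a median of 0.62 (0.17 to 1.80) against -0.02. For 53 of the 57 genes both WT bilirubin libraries lay above both WT vehicle libraries, where 32.2% of all genes did so. The reverse held for 0 of the 57 genes, and for 15.4% of all genes. With totals alone the median was 0.80 for the 57 genes and 0.16 for all genes.

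The 4 genes with the smallest p were Dnah7c, Cfap73, Cfap206 and Cfap77. Dnah7c had 71.7 and 120.0 CPM in WT bilirubin, against 30.9 and 38.7 in WT vehicle (log2 fold change 1.26, SE 0.46, adjusted p = 0.422, edgeR). Cfap73, of the inner arm modifier, had 24.2 and 43.8 CPM in WT bilirubin, against 4.12 and 12.2 in WT vehicle (log2 fold change 1.80, SE 0.67, adjusted p = 0.431, edgeR). Cfap206, at the base of the radial spoke, had 164 and 237 CPM in WT bilirubin, against 86.5 and 102 in WT vehicle (log2 fold change 0.91, SE 0.39, adjusted p = 0.514, edgeR). The libraries of the 2 groups did not overlap for any of these, nor for Cfap77, of the doublet wall, which had 134 and 173 CPM in WT bilirubin, against 72.1 and 77.3 in WT vehicle (log2 fold change 0.86, SE 0.38, adjusted p = 0.522, edgeR).

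By role, the median log2 fold change was 0.75 for the 3 outer arm heavy chains tested, 0.81 for the 2 heavy chains of the 2-headed arm and 0.85 for the 8 of the 1-headed inner arms. It was 0.53 for the 4 intermediate chains, 0.59 for the 9 central apparatus genes, 0.55 for the 10 doublet wall proteins and 0.50 for the 5 broadly expressed genes. Of the 57 other genes of the machinery that were tested, 0 were called and 56 lay above 0, with a median of 0.58. Among them Spag8, a protein of the doublet lumen, had 98.8 and 117 CPM in WT bilirubin, against 32.96 and 50.9 in WT vehicle (log2 fold change 1.18, SE 0.38, adjusted p = 0.323, edgeR). Tekt4, a tektin filament of the doublet, had 103 and 154 CPM in WT bilirubin, against 43.3 and 63.1 in WT vehicle (log2 fold change 1.08, SE 0.39, adjusted p = 0.422, edgeR). Foxj1, which was used to define the class, had 294 and 308 CPM in WT bilirubin, against 202 and 208 in WT vehicle. The pairs of libraries did not overlap for any of the 3.

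Several other values moved with this difference. The 10 ependymal markers summed to 9773 and 13746 CPM in ependymal cells of WT bilirubin, against 8908 and 8533 CPM in WT vehicle. Mitochondrial UMIs made up 5.99% and 0.862% of the median ependymal cell in WT bilirubin, against 0.797% and 0.608% in WT vehicle. Bc1 had 925 and 657 CPM in WT bilirubin, against 11995 and 2649 in WT vehicle. Hbb-bs, a globin RNA of red blood cells, had 945 and 509 CPM in WT bilirubin, against 3247 and 5424 in WT vehicle, and Snap25, a neuronal gene, had 73.9 and 38.9 CPM in WT bilirubin, against 227 and 149 in WT vehicle. Each of these was apart between the groups in the 4 libraries. Summed motile cilia transcripts were also higher in cells with no class, at 1628 and 1715 CPM in WT bilirubin, against 859 and 996 CPM in WT vehicle. None of the motile cilia genes tested in other classes was called (0 with edgeR; microglia 1.03% of all genes, astrocytes 0%, oligodendrocytes 1.62%, endothelial cells 1.77%). Their median log2 fold change was 0.55 over 46 genes in microglia, 0.62 over 17 in astrocytes, 0.58 over 10 in oligodendrocytes and 0.10 over 38 in endothelial cells. In the erythroid class it was 0.80 over 39 genes, above the ependymal median. There 38 of the 39 genes lay above 0, where 48.3% of all genes did. The mural class had 0.50 over 5 genes, the T or NK class 0.32 over 9 and the fibroblast class -0.11 over 7. The part of these values in the result was not tested. Without WT vehicle library 1 the ependymal median was 0.68, and over the 6 libraries left out in turn it ran from 0.55 to 0.77.

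**Figure D5:**
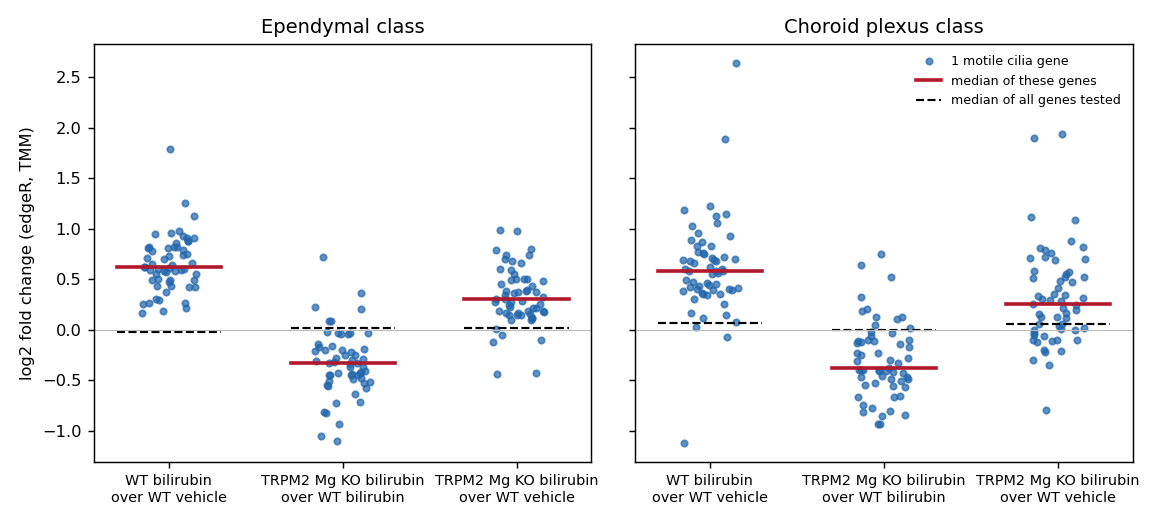
Log2 fold change (edgeR with TMM) of each motile cilia gene tested, for 3 comparisons of groups, in ependymal (57 genes) and choroid plexus cells (59 genes), beside the median of all genes tested. The medians of WT bilirubin over WT vehicle are 0.62 and 0.58, those of TRPM2 Mg KO bilirubin over WT bilirubin -0.33 and -0.38, and no gene passed the threshold; the comparisons share libraries.

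For TRPM2 Mg KO bilirubin against WT bilirubin in ependymal cells, 0 of 57 genes were called, where 0.0114% of all genes were (edgeR; 3 of the 57 had an unadjusted p under 0.05, and DESeq2 called 0 of the 57). The median log2 fold change was -0.33, against 0.02 over all genes, and 6 of the 57 lay above 0, where 51.8% of all genes did. With totals alone these medians were -0.45 and -0.19. The WT bilirubin libraries are shared with the comparison before, so the 2 results are not independent. The knockout libraries did not behave as a pair. Dnah11 had 349.6 and 87.05 CPM in TRPM2 Mg KO bilirubin, against 329 and 365 in WT bilirubin, and Dnah9 had 319 and 99.5 CPM in TRPM2 Mg KO bilirubin, against 285 and 357 in WT bilirubin. Library 1 lay within the WT bilirubin range for both and library 2 far below it. Without library 1 the median was -0.71, and without library 2 it was -0.02. Without WT bilirubin library 2 it was -0.20.

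The difference between the 2 knockout libraries was uneven over roles. The 8 heavy chains of the 1-headed inner arms summed to 1784 and 557 CPM and the 9 central apparatus genes to 1951 and 619 CPM, but the 11 doublet wall proteins to 1875 and 1665 CPM and the 2 assembly factors to 413 and 301 CPM. Library 2 also had the deepest ependymal cells (median 5791.5 UMIs, against 3113.5 in library 1), a lower sum of ependymal markers (8119 CPM, against 11218 in library 1) and more Ttr (39101 CPM, against 14917 in library 1). The part of these values in the result was not tested.

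The 4 genes with the smallest p in this comparison were Cfap92, Cfap99, Dnah14 and Dnah10. Cfap92 had 43.1 and 12.4 CPM in TRPM2 Mg KO bilirubin, against 47.6 and 68.1 in WT bilirubin (log2 fold change -1.10, SE 0.44, adjusted p = 0.907, edgeR). Cfap99, of the central apparatus, had 32.9 and 9.33 CPM in TRPM2 Mg KO bilirubin, against 38.8 and 43.8 in WT bilirubin (log2 fold change -1.05, SE 0.46, adjusted p = 0.940, edgeR). The 1-headed arm chain Dnah14 had 25.3 and 11.7 CPM in TRPM2 Mg KO bilirubin, against 40.3 and 30.8 in WT bilirubin (log2 fold change -0.93, SE 0.44, adjusted p = 0.940, edgeR). For all of these and for Dnah10, with 198 and 83.9 CPM in TRPM2 Mg KO bilirubin, against 212 and 284 in WT bilirubin (log2 fold change -0.72, SE 0.39, adjusted p = 0.940, edgeR), both knockout libraries lay below both WT bilirubin libraries. This held for 11 of the 57 genes, where it held for 21.4% of all genes. For 1 gene, Cfap410, both knockout libraries lay above both WT bilirubin libraries, where 7.95% of all genes did so. Of the 57 other genes of the machinery that were tested, 0 were called and 12 lay above 0 (median -0.28). Iqcd, of the nexin-dynein regulatory complex, had 30.4 and 27.98 CPM in TRPM2 Mg KO bilirubin, against 65.1 and 89.2 in WT bilirubin (log2 fold change -1.15, SE 0.37, adjusted p = 0.630, edgeR), so here the 2 knockout libraries lay together.

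Set against WT vehicle, the ependymal cells of TRPM2 Mg KO bilirubin had a median log2 fold change of 0.31 over the 57 genes, against 0.02 over all genes. None of the 57 was called, where 0.0114% of all genes were (0 with edgeR, 2 of the 57 with an unadjusted p under 0.05, and 0 with DESeq2). For 15 genes both knockout libraries lay above both WT vehicle libraries, where 15.3% of all genes did. Without library 1 of the knockout the median was 0.00 and without library 2 it was 0.60. Cfap410, a broadly expressed gene known from human retinal disease, had 65.9 and 63.7 CPM in TRPM2 Mg KO bilirubin, against 16.5 and 50.9 in WT vehicle (log2 fold change 0.99, SE 0.45, adjusted p = 0.595, edgeR). Cfap53, of the doublet wall, had 70.9 and 53.6 CPM in TRPM2 Mg KO bilirubin, against 32.96 and 38.7 in WT vehicle (log2 fold change 0.80, SE 0.37, adjusted p = 0.600, edgeR). Both pairs of libraries were apart, without passing the test.

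In choroid plexus cells 59 of the 63 genes passed the filter on low counts. In simulated data with the spread of WT bilirubin against WT vehicle there, the test found 0% of genes changed 2-fold and 70.0% of those changed 4-fold. For that comparison 0 of the 59 genes and 0% of all 15247 genes were called (edgeR; 8 of the 59 and 2051 of all genes had an unadjusted p under 0.05, and DESeq2 called 0 of the 59 and 124 of all). The median log2 fold change was 0.58, against 0.07 over all genes, and 57 of the 59 lay above 0, where 54.5% of all genes did. With totals alone these medians were 0.32 and -0.20. Without WT vehicle library 1 the median of the motile cilia genes was 0.43, and over the 6 libraries left out in turn it ran from 0.43 to 0.85. Several values moved with this difference in choroid plexus cells too. Bc1 had 602 and 823 CPM in WT bilirubin, against 10863 and 2136 in WT vehicle, Hbb-bs had 577 and 309 CPM in WT bilirubin, against 3342 and 4031 in WT vehicle and Snap25 had 38.7 and 18.1 CPM in WT bilirubin, against 187 and 77.6 in WT vehicle. Mitochondrial UMIs made up 3.49% and 0.949% of the median cell in WT bilirubin, against 0.745% and 0.512% in WT vehicle. In WT vehicle library 1, 359 of 1117 choroid plexus cells held exactly the 3 markers needed, against 14 to 119 cells in the other 5 libraries. The part of these values in the result was not tested.

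Among single genes in this comparison, Cfap54 had 17.6 and 22.4 CPM in WT bilirubin, against 11.04 and 10.1 in WT vehicle (log2 fold change 1.19, SE 0.38, adjusted p = 0.187, edgeR). Cfap206 had 27.8 and 27.9 CPM in WT bilirubin, against 11.4 and 15.9 in WT vehicle (log2 fold change 1.23, SE 0.43, adjusted p = 0.213, edgeR). The libraries did not overlap for either gene, as for 23 of the 59 genes (14.6% of all genes). The 3 genes with both WT bilirubin libraries below both WT vehicle libraries were Cfap97, Cfap58 and Dnah14, named after their values were seen, where this held for 32.7% of all genes. These counts compare CPM; on the TMM scale Cfap97 (0.03) and Cfap58 (0.11) lay above 0, so no direction is given for them. Cfap99 (log2 fold change 2.64, SE 0.97, adjusted p = 0.240, edgeR) and Dnah10 (log2 fold change 1.89, SE 0.74, adjusted p = 0.266, edgeR) had at most 1.28 and 4.24 CPM in these libraries, and Dnah10 was lower there than in the other named classes of the same 4 libraries. Dnah10 passed the threshold without library 1 or without library 2 of the knockout, and with neither of them in the fit (1.94, 1.94 and 1.91, adjusted p = 0.0285, 0.0418 and 0.0421, edgeR).

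The knockout with bilirubin against WT bilirubin gave a median of -0.38 in choroid plexus cells, against 0.00 over all genes, with 11 of 59 genes above 0 (50% of all genes). Here 0 were called, as were 0% of all genes (edgeR; 1 of the 59 had an unadjusted p under 0.05, and DESeq2 called 0 of the 59). Without WT bilirubin library 2 the median was -0.17. Cfap53 had 9.21 and 6.06 CPM in TRPM2 Mg KO bilirubin, against 12.8 and 13.8 in WT bilirubin (log2 fold change -0.93, SE 0.40, adjusted p = 0.815, edgeR). Cfap43, of the inner arm tether, had 6.37 and 7.54 CPM in TRPM2 Mg KO bilirubin, against 10.5 and 10.9 in WT bilirubin (log2 fold change -0.77, SE 0.37, adjusted p = 0.863, edgeR). For both genes the knockout libraries lay together below those of WT bilirubin, as for 15 of the 59 genes (8.55% of all genes). Against WT vehicle the knockout gave a median of 0.25, against 0.06 over all genes, with 0 of 59 genes called and 0% of all genes (edgeR; 1 of the 59 had an unadjusted p under 0.05, and DESeq2 called 0 of the 59). Without WT vehicle library 1 the median was 0.07, and without WT vehicle library 2 it was 0.49. Without TRPM2 Mg KO bilirubin library 1 it was 0.14. In that fit Dnah10 had a log2 fold change of 2.71 and Cfap141 of 1.89. The knockout arm then held 1 library, assumed to vary like the other groups, so neither value is read as a result. That library also had the most Cfap141 and Tmem212 in choroid plexus cells, and the part of this was not tested.

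Whether the effects differed between ependymal and choroid plexus cells was tested directly, in a test added after the data were seen. For none of the 3 comparisons was any of 59 genes called (edgeR; 0 called, against 0%, 0.0145% and 0% of all 13819 genes, and 1, 3 and 4 of the 59 with an unadjusted p under 0.05). DESeq2 was not run for this. In the 8 other classes with enough cells, between 5 and 46 motile cilia genes could be tested, and in 24 comparisons 0 were called, where 0% to 1.77% of all genes were. For TRPM2 Mg KO bilirubin against WT bilirubin these shares were 0.0115% in astrocytes, 0% in oligodendrocytes, 0.00748% in microglia and 0.0169% in endothelial cells. For TRPM2 Mg KO bilirubin against WT vehicle they were 0.0115%, 0.0126%, 0% and 0.0677% in the same order of classes (edgeR; at most 10 of 39 genes had an unadjusted p under 0.05, in the erythroid class for WT bilirubin against WT vehicle).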

How the data were processed

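Per the labels, cells were freshly dissociated from mouse brain and 6 libraries were made with a 10x Genomics 3′ kit. Per the submitters' processing notes, Cell Ranger 8.0.0 and Scanpy 1.9.6 were used, with GRCm39 and mm10 both named; the matrix headers name Cell Ranger 9.0.1. The authors deposited filtered matrices of whole-number UMI counts per gene and barcode, with other columns holding gene names and barcodes. The sources do not state whether strand was used in counting.

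A cell was kept from 500 UMIs and 300 genes upwards if mitochondrial UMIs made up no more than 15%. Doublet removal used Scrublet (scanpy 1.11.5); in TRPM2 Mg KO bilirubin library 2 its automatic threshold marked 0 cells, so the top share at the expected rate was removed. Each cell was scored against 19 marker classes by its marker UMIs over those expected from the library. A class needed a score of 5, at least 3 markers and 2 times the score of the next class. These thresholds were set with the files in hand, and the first ones tried were kept.

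Counts were summed per library and class. CPM values are UMIs per 1000000 UMIs of that sum. Sums were tested with edgeR 4.0.16 (quasi-likelihood, TMM, filterByExpr, all 6 libraries in 3 groups, 3 residual degrees of freedom, R 4.3.3, limma 3.58.1), and p-values were adjusted by Benjamini-Hochberg over all genes, with a threshold of 0.05. Class comparisons used 12 sums with library as a block and left marker genes out. With 2 libraries against 2, an exact permutation test over samples cannot go below p = 0.333, so none was used. The fits were tested on simulated data with 200 changed genes. Alternatives were DESeq2 1.42.0, no low-count filter, the replicate block, only the libraries compared, stricter gates and cell filters, no doublet removal and each library left out. A non-ciliary gate, also run, replaced the ependymal markers by Rarres2, Mia, Tm4sf1, Pltp, Vit and Zcchc12. The test of the difference between classes and scaling by totals were added after the data were seen.

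The genes, gene lists and markers were chosen with earlier results of these data known. Named genes were the 12 highest in ependymal cells, the 4 smallest p of each group comparison, the 6 highest and 6 lowest class differences among genes with at least 5 CPM, up to 8 of the highest in the other classes, the 4 highest called for choroid plexus, and for each pathway list the 2 smallest p per group comparison, of which a selection is named. Depth limits precision: the ependymal sums held 394727 to 1366081 UMIs. Replicate numbers did not pair the libraries.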

Additional observations from a re-analysis of the deposited data

Results flagged for a closer look

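Cells to which no class was given also held motile cilia transcripts, and in the bilirubin libraries they held more than in either WT vehicle library. The 63 genes summed to 1110 and 1284.8 CPM in cells with no class of TRPM2 Mg KO bilirubin, and to 1627.67 and 1714.94 CPM in those of WT bilirubin, against 858.76 and 996.11 CPM in those of WT vehicle. These cells entered no comparison and the difference was not tested.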

How the results depend on the processing

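Of the values that answer a comparison, 182 kept their direction and their side of the threshold under an alternative, 7 were lower counts of calls, 7 were higher counts of calls and 5 were summed levels that moved. Of those for single genes 751 kept both, 7 were no longer past it, 8 were newly past it, 6 moved and 6 turned sign. In choroid plexus cells 1 gene was called for WT bilirubin against WT vehicle with only the 4 libraries compared, and between 0 and 1 with each library left out; for TRPM2 Mg KO bilirubin against WT vehicle this range was 0 to 2, where a group left with 1 library is assumed to vary like the others. Genes called lower in ependymal than in choroid plexus cells numbered 0 with totals only, 1 with the stricter gate, 1 with the non-ciliary gate and 1 to 4 with each library left out, against 2. Genes called lower in choroid plexus than in the other classes numbered 5 with totals only and 2 with no low-count filter, against 0. The summed level in ependymal cells of WT vehicle was 7357.88 CPM with the stricter gate, 7620.58 with the non-ciliary gate, 6592.07 with the stricter cell filter and 6523.19 without doublet removal, against 6599.32. That in choroid plexus cells of WT bilirubin was 1484.61 CPM with the stricter cell filter, against 1507.25. For ependymal over choroid plexus cells the sign turned for Cfap298 (0.064), Cfap410 (0.15) and Cfap68 (0.25) with totals only, for Cfap20dc (-0.057) and Cfap97 (-0.033) with no low-count filter, and for Cfap20dc without WT vehicle replicate 1 (range with each library left out -0.29 to 0.45). The cause was not tested. With the replicate block 0 genes were called in the 6 group comparisons, with medians of 0.63, -0.38 and 0.28 in ependymal cells and 0.60, -0.31 and 0.24 in choroid plexus cells. Same-numbered libraries share only a number (r of their differences -0.54 to 0.16), and the block changed no call. With 2 libraries a group, and a 2-fold change between groups mostly missed in simulated data, small changes between groups were mostly not detectable.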

Other observations

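Microglia, astrocytes, oligodendrocytes and endothelial cells were set side by side. A few motile cilia genes had more UMIs in a class among these than in the other 3. They were named after their values were seen and no test was run. Border macrophages, monocytes, neutrophils and neurons are not shown, so no gene is called particular to a class. Cfap45, of the doublet wall, averaged 44.5 ± 14.5 CPM in microglia (SD, n = 6 libraries), against 10.8 ± 4.42 CPM in astrocytes, 9.45 ± 4.88 CPM in oligodendrocytes and 12.7 ± 1.43 CPM in endothelial cells. Cfap74, of the central apparatus, averaged 31.8 ± 9.35 CPM in microglia, against 15.8 ± 3.33 CPM in astrocytes, 6.80 ± 6.57 CPM in oligodendrocytes and 8.39 ± 0.981 CPM in endothelial cells. Dnah14, a heavy chain, averaged 14.9 ± 9.91 CPM in oligodendrocytes, against 1.14 ± 0.322 CPM in microglia, 2.67 ± 2.34 CPM in astrocytes and 1.55 ± 1.32 CPM in endothelial cells. For Cfap45 and Cfap74 the lowest microglia library lay above the highest library of each of the other 3 classes.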
